A study of Cricetulus griseus with 6 samples.

Results

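*Bloc1s1*, *Scara3*, *Ergic3*, *Saraf* and *Pmp22* are genes whose transcripts are reported to be cut by IRE1α in other cells, and they were followed in CHO-T cells after silencing of *Xbp1*. The members were taken by gene symbol from such reports, a rule that uses no value measured here, although earlier results of these data were known when the 5 were picked. All 5 were found, each on 1 row, among the 27873 entries of the deposited expression files. The CHO-T line was made from Chinese hamster ovary (CHO) cells by stable retroviral transfer of mouse T-cadherin (*Cdh13*) cDNA, and both groups carry this transgene. They were transfected with negative control siRNA (3 libraries) or with *Xbp1* siRNA (3 libraries), and RNA was taken at 48 h. A single *Xbp1* siRNA sequence was used, so effects of that sequence on other transcripts cannot be told apart from those of losing *Xbp1*. The study's methods speak of independent biological experiments in general, but the labels do not say whether these libraries came from separate cultures, so p-values measure the spread between them, which may be technical.

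IRE1α detects unfolded protein in the endoplasmic reticulum (ER). Once active, its RNase cuts *Xbp1* mRNA, and the rejoined message encodes the transcription factor XBP1s. When strongly activated it also cuts other mRNAs at the ER, which are then degraded, a process called regulated IRE1-dependent decay. Loss of XBP1 is known to activate IRE1α in several tissues. The question put to these data was whether the 5 reported substrates were lower after *Xbp1* silencing, as decay by overactive IRE1α would predict. Only mRNA levels at 48 h were measured, so rates of decay and of transcription cannot be told apart, and decay itself was not tested.

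The sequences recognised by IRE1α are hairpin loops, whose shared core is CNGCAGN. Stretches of *Xbp1* and *Cdh13* mRNA that the study's supplement gives as holding candidate sites are shown here to make the motif visible, with matches to CNGCAGN on the given strand in capitals. The supplement does not name the species of these stretches, and cutting at them was not measured in these libraries. In the *Xbp1* stretch 2 of the 3 matches overlap each other. Transcript sequences of the 5 members were not analysed here, so their own sites are not shown.
*Xbp1*: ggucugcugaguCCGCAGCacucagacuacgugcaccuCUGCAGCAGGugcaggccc
*Cdh13*: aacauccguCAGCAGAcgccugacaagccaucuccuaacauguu

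None of the 5 genes passed the test for a decrease. *Ergic3* rose to 1.44-fold of the control, *Pmp22* to 1.64-fold and *Saraf* to 1.10-fold, whereas *Bloc1s1* (0.973-fold) and *Scara3* (0.944-fold) did not pass the test in either direction. Levels are given in FPKM, fragment counts set in relation to transcript length and to mapped reads. Whether the authors also scaled the values between libraries is not given in the sources used here. The test was that of limma, run on log2(FPKM + 0.1) for the 14361 genes whose mean reached 0.1 FPKM. All 5 members passed that filter. At an adjusted p under 0.05, 3 of the 5 members were higher and 0 were lower, while 20.2% of all genes tested were higher and 20.2% lower. With so few members, neither share sets them apart from other genes. With the further limit of a log2 fold change of 1 in size, which the study's methods use, no member was called, against 2.69% of all genes called higher and 2.5% called lower. The median log2 fold change of the members was 0.14, beside 0.01 over all genes tested. It was 0.27 with equal library sums, where that of all genes was 0.14, and 0.27 after quantile normalization, where that of all genes was 0.02.

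**Figure D1:**
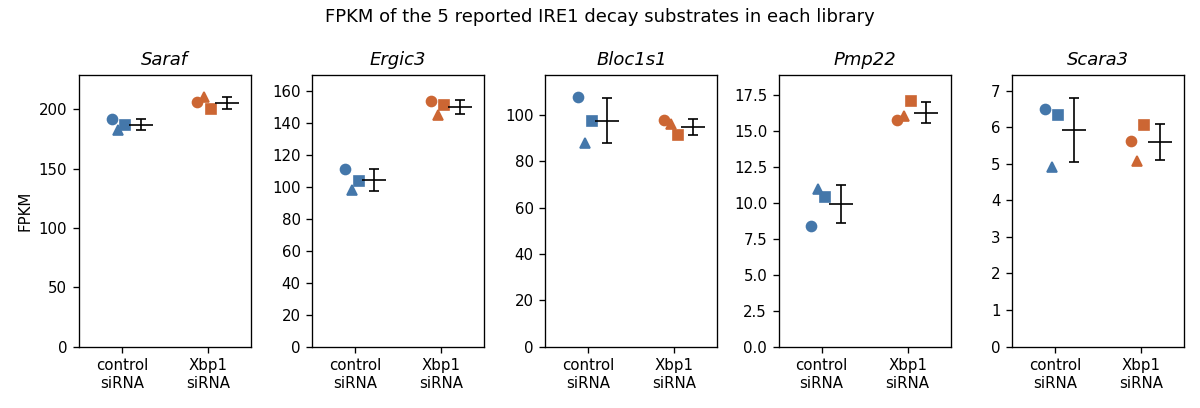
FPKM (vertical axes, each from 0) of the 5 members in the 3 control siRNA libraries (blue) and the 3 *Xbp1* siRNA libraries (orange), with circles, triangles and squares for replicates 1, 2 and 3 and bars for mean ± SD. The groups are apart for *Saraf*, *Ergic3* and *Pmp22* and overlap for *Bloc1s1* and *Scara3*.

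The silenced gene was checked first. *Xbp1* had 26.0, 26.2 and 28.4 FPKM in the control libraries and 2.18, 2.11 and 1.39 FPKM with *Xbp1* siRNA, 7.05% of the control mean (−3.78 on the log2 scale, adjusted p = 5.61e-06, limma). *Ern1*, which encodes IRE1α, had 29.8 ± 0.826 FPKM (SD, n = 3) in the controls and 27.0 ± 0.388 FPKM (SD, n = 3) after silencing, a log2 fold change of −0.14 that passed the test (adjusted p = 0.0356, limma) but not after quantile normalization (−0.09, adjusted p = 0.137, limma) or with equal library sums (−0.005, adjusted p = 0.946, limma). mRNA levels do not measure the phosphorylation or RNase activity of IRE1α.

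The libraries differed in ways that touch small fold changes. The FPKM of all entries summed to 646651 to 666267 in the control libraries and to 593487 to 600986 with *Xbp1* siRNA. Setting all sums equal, an alternative chosen after seeing the data, moved the median log2 fold change of all genes from 0.01 to 0.14 and the share of higher genes among those at an adjusted p under 0.05 from 49.9% to 70.9%. Read totals are not in the files, but the commonest ratio between low values of a pair of libraries, taken as 1 read in each, put the relative depth between 94.0% and 116% of control replicate 1. As a check of the cell type, *Vim* was abundant, at 295.8 to 389 FPKM, while *Col1a1*, *Col1a2*, *Thy1*, *Ptprc*, *Cd14*, *Cdh5*, *Fshr*, *Zp3* and *Krt18* were listed at 0 in every library. Of 4 epithelial markers 3 were matched, and their summed level was 1.83 to 2.16 FPKM in the controls and 4.59 to 5.79 FPKM after silencing, most of it from *Epcam*. Of 5 fibroblast markers 3 were at 0, and the other two went opposite ways: *Vim* was at 369 to 389 FPKM in the controls and at 295.8 to 319 FPKM after silencing, and *Fn1* at 12.7 to 13.5 and then at 23.2 to 23.4 FPKM. Their sum, mostly *Vim*, was 383 to 402 and then 319 to 343 FPKM. The 3 leukocyte markers, all of it *Cd68*, summed to 5.18 to 6.15 and then 6.99 to 8.80 FPKM. Markers of granulosa cells (2 of 4 matched, at most 3.55 FPKM), oocytes (3, at most 0.726 FPKM) and endothelial cells (3, at most 0.305 FPKM) were low. The part of these shifts in the results was not tested. In bulk RNA, fewer cells of a type and less RNA per cell cannot be told apart.

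*Bloc1s1* encodes a subunit shared by BLOC-1 and BORC, complexes that act in the making of lysosome-related organelles and in the positioning of lysosomes, and it is the substrate most often used as a readout of IRE1-dependent decay. It had 108, 87.9 and 97.2 FPKM in the control libraries and 97.9, 95.9 and 91.2 FPKM after silencing. The *Xbp1* siRNA values lay inside the range of the controls. On the log2 scale the difference was −0.04 with a standard error of 0.072 (adjusted p = 0.736, limma). Its 95% interval was −0.20 to 0.13, that is, −13.1% to 9.68% as a percent change. Its sign was not fixed: the log2 fold change was 0.04 without control replicate 1, which had the highest value, 0.03 after quantile normalization and 0.10 with equal library sums. Less the median of all genes tested, it was −0.04 both without rescaling and with equal library sums.

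Other subunits of BLOC-1 and BORC went both ways. Of 12 listed, 8 symbols were matched and all were tested, on 9 rows, since *Dtnbp1* stands on 2 rows. Of the 9 rows, 3 were higher and 2 lower at an adjusted p under 0.05, beside 20.2% of all genes tested in each direction. The median log2 fold change of the 9 rows was 0.09. *Bloc1s5* fell by 0.69 on the log2 scale, to 62.0% of its control mean of 19.3 FPKM (adjusted p = 6.63e-04, limma), and *Bloc1s6* fell by 0.35. *Bloc1s2*, *Snapin* and 1 row of *Dtnbp1* rose, by 0.25, 0.17 and 0.44. *Bloc1s4* (0.09), *Borcs5* (0.14), *Borcs8* (0.07) and the other row of *Dtnbp1* (−0.05) did not pass, like *Bloc1s1* itself. With equal library sums the counts were 5 higher and 2 lower.

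*Scara3*, a member of the class A scavenger receptor family that is induced by oxidative stress, was the lowest of the 5 in level. It had 6.50, 4.92 and 6.33 FPKM in the control libraries and 5.62, 5.07 and 6.07 FPKM after silencing. All 3 values with *Xbp1* siRNA lay between the lowest and the highest control. The difference on the log2 scale was −0.07 with a standard error of 0.13 (adjusted p = 0.692, limma), and its 95% interval, the widest of the 5 on the log2 scale, ran from −0.38 to 0.23, or −23.3% to 17.6%. A decrease of *Scara3* inside that interval could therefore not be told from no change at this spread. Leaving out control replicate 2 gave −0.20 and equal library sums 0.06, with no call. Less the median of all genes tested, *Scara3* was at −0.08 both without rescaling and with equal library sums. The other class A receptors on the list (*Msr1*, *Marco*, *Scara5* and *Colec12*) were all below the filter, 3 of them listed at 0 in every library, so *Scara3* could be set beside no relative.

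*Ergic3* encodes a membrane protein that cycles between the ER and the Golgi through the ER-Golgi intermediate compartment (ERGIC). It had 112, 98.0 and 104 FPKM in the control libraries and 154, 145 and 152 FPKM after silencing. Every *Xbp1* siRNA library was above every control library, as for 26.1% of all genes tested; the reverse order held for 25.8%. *Ergic3* rose by 0.53 on the log2 scale, with a 95% interval of 0.41 to 0.65 (standard error 0.052, adjusted p = 2.05e-04, limma), and lay between 0.48 and 0.66 under all 15 alternatives. Taken alone, *Ergic3*, *Saraf* and *Pmp22* each had p = 0.10 in the exact permutation test (two-sided), the smallest that 3 libraries against 3 allow.

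The relatives and neighbours of *Ergic3* in the early secretory pathway split in direction. *Ergic1* rose from 34.0 ± 1.69 to 57.4 ± 3.64 FPKM (SD, n = 3 each), a log2 fold change of 0.75. *Ergic2*, whose product forms a complex with ERGIC3, fell from 76.6 ± 1.39 to 27.5 ± 2.44 FPKM (SD, n = 3 each), that is, −1.48 on the log2 scale (adjusted p = 6.04e-06, limma), and was the 1 gene of the 6 that passed the fold limit. The cargo receptors *Lman2* (0.36) and *Lman1* (0.15) were higher, and *Surf4* (−0.45) and *Mcfd2* (−0.39), the partner of LMAN1, were lower. All 6 genes passed an adjusted p of 0.05, 3 in each direction, also under the 3 other scalings. Of all genes tested, 20.2% passed in each direction without rescaling.

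*Saraf* encodes an ER membrane protein that switches off store-operated calcium entry by acting on STIM1, and it was the most abundant of the 5. It had 192, 183 and 187 FPKM in the control libraries and 206, 211 and 200.2 FPKM after silencing. The groups did not overlap. The rise was 0.14 on the log2 scale, with a 95% interval of 0.06 to 0.21 (standard error 0.034, adjusted p = 0.0153, limma). This call was lost without control replicate 2 (0.12, adjusted p = 0.0594, limma), without *Xbp1* siRNA replicate 2 (0.12, adjusted p = 0.0548, limma) and when limma was run without an intensity trend (adjusted p = 0.0701, limma). The log2 fold change was 0.27 both with equal library sums and after quantile normalization. Less the median of all genes tested, it was 0.13 without rescaling, 0.13 with equal library sums and 0.26 after quantile normalization.

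Of 9 genes of store-operated calcium entry, 2 were higher and 4 lower, beside 20.2% of all genes tested in each direction. The median of the 9 was −0.03, and 0.11 with equal library sums, where 3 were higher and 2 lower. *Stim1*, the ER calcium sensor, rose by 0.15 and *Itpr2*, an ER calcium release channel, by 0.40. *Orai3* and *Orai1*, channels of the plasma membrane, had −0.40 and −0.33, *Stim2* −0.35 and *Itpr3* −0.25. With equal library sums *Orai1* (−0.19, adjusted p = 0.156, limma) and *Itpr3* (−0.12, adjusted p = 0.119, limma) did not pass.

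*Pmp22*, a tetraspan membrane protein best known from peripheral myelin and a frequent client of ER quality control, had the largest fold change of the 5 members. It had 8.38, 10.9 and 10.4 FPKM in the control libraries and 15.7, 16.0 and 17.1 FPKM after silencing. The lowest value with *Xbp1* siRNA was above the highest control. *Pmp22* rose by 0.72 on the log2 scale, with a 95% interval of 0.48 to 0.96 (standard error 0.10, adjusted p = 0.00127, limma), and by 0.60 without control replicate 1, its lowest library, to 0.86 with equal library sums. It ranked 1184 from the top among the 14361 log2 fold changes, and *Ergic3* ranked 1897.

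The 3 relatives of *Pmp22* in the same tetraspan family that reached the filter also differed. Each passed an adjusted p of 0.05, as 20.2% of all genes tested did in each direction. *Emp2* rose from 6.62 ± 0.142 to 12.8 ± 0.531 FPKM (SD, n = 3 each), a log2 fold change of 0.94, and *Emp3* from 26.5 ± 1.28 to 43.5 ± 6.71 FPKM (SD, n = 3 each), one of 0.71. *Emp1*, the most abundant, fell from 85.1 ± 1.45 to 46.0 ± 1.77 FPKM (SD, n = 3 each), that is, −0.88 on the log2 scale (adjusted p = 6.26e-06, limma).

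**Figure D2:**
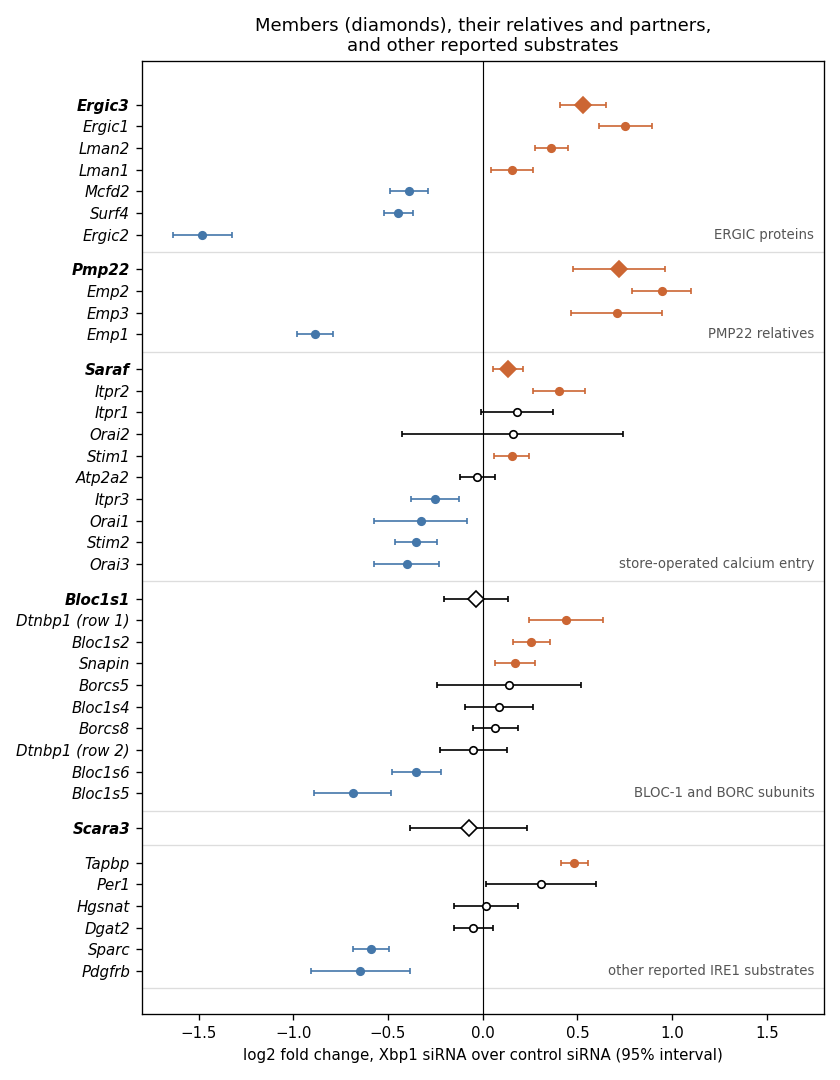
Log2 fold change (horizontal axis, with the 95% interval) of the 5 members (diamonds), of their relatives and partners, and of other reported substrates (circles), filled where the adjusted p was under 0.05 and coloured orange for higher and blue for lower. *Ergic3* at 0.53 stands between *Ergic1* at 0.75 and *Ergic2* at −1.48, and *Pmp22* at 0.72 between *Emp2* at 0.94 and *Emp1* at −0.88.

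The members were also compared with each other inside each library, where the scale of the library cancels. In the control libraries the order of levels was *Saraf*, then *Ergic3* and *Bloc1s1*, then *Pmp22*, then *Scara3*. *Ergic3* and *Bloc1s1* overlapped there and the other neighbours in the order did not. After silencing the order was the same and *Ergic3* and *Bloc1s1* no longer overlapped. The log2 ratio of *Bloc1s1* to *Ergic3* was −0.05, −0.16 and −0.09 in the controls and −0.66, −0.60 and −0.73 with *Xbp1* siRNA. Of the 10 pairs of members, the ratio did not overlap between the conditions in 7 (exact two-sided permutation p = 0.10 each, the smallest possible, 0.143 after Benjamini-Hochberg adjustment over the 10 pairs). The same held for 51.5% of all pairs of genes above 0 in every library, and the 10 pairs share members, so this count is not a result about the members. The 3 pairs that overlapped were *Bloc1s1* with *Scara3*, *Scara3* with *Saraf*, and *Ergic3* with *Pmp22*. No ratio could reach an adjusted p under 0.05 with 3 libraries a group.

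**Figure D3:**
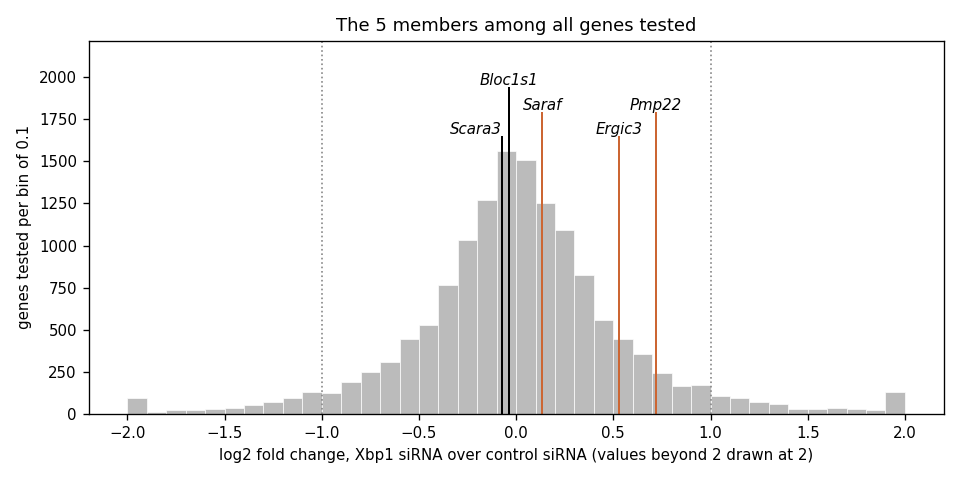
Distribution of the log2 fold change (horizontal axis, in bins of 0.1) over the 14361 genes tested, with the 5 members as vertical lines, orange where the adjusted p was under 0.05 and black otherwise, and dotted lines at 1 and −1 (values beyond 2 in size are drawn at 2). *Scara3* at −0.07 and *Bloc1s1* at −0.04 lie at the centre, and *Ergic3* at 0.53 and *Pmp22* at 0.72 lie to the right of it, inside the dotted lines.

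Other transcripts reported as cut by IRE1 went both ways. Of 13 listed, 9 were matched and 6 tested, of which 1 was higher and 2 lower. Of all genes tested, 20.2% were higher and 20.2% lower, so with so few genes this count does not set the list apart. The median of the 6 was −0.02 on the log2 scale, and 0.12 with equal library sums, where 2 were higher and 2 lower. *Sparc*, a secreted matrix glycoprotein, fell from 316 ± 14.8 to 209.7 ± 4.41 FPKM (SD, n = 3 each), that is, −0.59 on the log2 scale (adjusted p = 3.71e-05, limma). *Pdgfrb*, a receptor tyrosine kinase, fell from 4.43 ± 0.243 to 2.79 ± 0.210 FPKM (SD, n = 3 each), one of −0.65. *Tapbp*, which loads peptides on MHC class I, rose by 0.48, and *Hgsnat*, *Dgat2* and *Per1* did not pass, with 0.02, −0.05 and 0.31. *Cdh13*, the study's own candidate, had a log2 fold change of −1.37 (95% interval −1.45 to −1.29), and how reads of the mouse transgene were counted on the hamster gene is not given in the sources used here. The lower ends of the members' intervals, from −0.38 for *Scara3* to 0.48 for *Pmp22*, all lay above that interval. This sets sizes side by side, and decay of *Cdh13* or of the members was not tested.

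The known transcriptional targets of XBP1 were not uniformly lower either. Of 22 tested, 8 were higher and 9 lower, beside 20.2% of all genes tested in each direction. None differed by a log2 fold change of 1, and with equal library sums the counts were 12 and 5. *Sel1l* of ER-associated degradation fell by 0.81 on the log2 scale, and *Creld2* and *Syvn1* rose by 0.53 and 0.51. *Dnajb9*, a co-chaperone that restrains IRE1α, had 10.6 ± 0.884 FPKM in the controls and 12.4 ± 0.191 FPKM after silencing (SD, n = 3 each; log2 fold change 0.23, adjusted p = 0.0486, limma), and did not pass after quantile normalization (adjusted p = 0.0603, limma). *Hspa5*, which encodes BiP, had −0.29, and −0.03 after quantile normalization (adjusted p = 0.441, limma).

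Among IRE1 and its direct partners 6 of 8 genes were tested, 2 of them higher and 3 lower. These counts were 3 higher and 2 lower after quantile normalization and with equal library sums. Without such rescaling, 20.2% of all genes tested were higher and 20.2% lower, shares to set beside each list here. *Rtcb* and *Ddx1*, of the tRNA ligase complex that rejoins *Xbp1* mRNA, fell by 0.35 and 0.38 on the log2 scale, *Zbtb8os*, of the same complex, rose by 0.30, and *Traf2*, an adaptor to the JNK pathway, rose by 0.52. Of 12 genes of the PERK and ATF6 branches 2 were higher and 5 lower. *Atf6* fell from 92.0 ± 0.711 to 43.5 ± 1.99 FPKM (SD, n = 3 each), that is, −1.08 on the log2 scale (adjusted p = 3.87e-06, limma), *Ddit3* fell by 0.55, and *Eif2ak3*, the gene of PERK, rose by 0.51. Of 13 genes that act in RNA decay after a cut, by degrading the fragments or freeing ribosomes stalled on them, 1 was higher and 2 lower. These were *Skiv2l* with 0.39, *Exosc9* with −0.33 and *Hbs1l*, a ribosome rescue factor, with −0.97, while *Xrn1* had 0.03 and *Pelo*, the partner of HBS1L, −0.13, neither of which passed. After quantile normalization, and also with equal library sums, 3 genes of this list were higher and 2 lower.

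The genes whose pattern over the 6 libraries was most like that of each member were found by Pearson's r of log2 values among 9372 other genes whose mean reached 1 FPKM, whose symbol is not a LOC number and which stand on 1 row. For *Ergic3* these were *Ankrd1*, *Dpp3* and *Clptm1*, with r of 0.998, 0.997 and 0.997. For *Pmp22* they were *Sspn*, *Chmp3* and *Wdfy3*, with r of 0.999, 0.998 and 0.997, and for *Saraf* they were *Slc25a16*, *Rnf214* and *Fbxw4*, with r of 0.997, 0.995 and 0.993. For *Bloc1s1* they were *Tm9sf4*, *Orc6* and *C3H11orf98* (0.999, 0.982 and 0.962), and for *Scara3* they were *Csnk1d*, *Clrn1* and *Ikbkb* (0.977, 0.957 and 0.952). These 6 points share libraries, and in the last 2 members the likeness is in the scatter between libraries of a condition, since none of their 6 genes passed an adjusted p of 0.05.

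**Figure D4:**
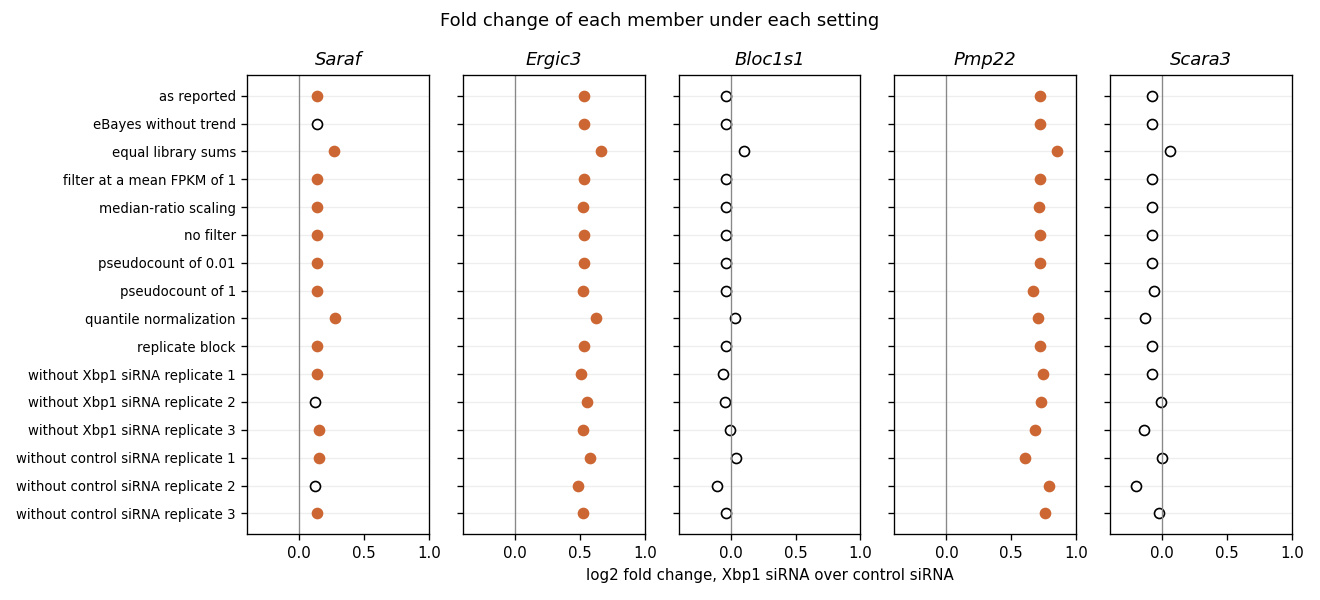
Log2 fold change (horizontal axes) of each member as reported and under 15 alternatives (rows), filled where the adjusted p was under 0.05. *Ergic3* and *Pmp22* are filled in every row, *Saraf* is open in 3, and *Bloc1s1* and *Scara3* are open in every row and change side of 0.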

How the data were processed

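Total RNA was extracted with a column kit and stranded mRNA libraries were sequenced on an Illumina instrument. Per the labels, HISAT2 2.1.0 and Cuffdiff 2.2.1 were used, with no role given. The genome build and annotation are not given in the sources used here, so no coordinates are printed. The authors deposited FPKM values, 1 file per library; the raw counts named in the study's methods were not used here, and FPKM is no input for a count model such as DESeq2, which those methods name. The test was that of limma 3.58.1 under R 4.3.3 (lmFit, then eBayes with an intensity trend), on the log2 of FPKM plus 0.1 and over all genes whose mean reached 0.1 FPKM, with Benjamini-Hochberg adjustment. Fold changes of weakly expressed genes are understated on this scale. Entries with the same symbol were kept apart. Summaries were made in Python 3.11.15 (pandas 2.3.3, numpy 2.4.6, scipy 1.17.1). In a RefSeq gene table of another assembly, used for names, none of the 5 members overlaps another gene.

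The rule for the members rests on reports in other cells, but the members and the 10 gene lists were both chosen with earlier results of these data known. Named genes are the members, *Xbp1*, *Ern1*, *Dnajb9*, *Hspa5*, *Cdh13*, list genes (in lists of at most 15 any gene tested, otherwise the 3 with the largest change at an adjusted p under 0.05), and the 3 genes most alike to each member. The class A scavenger receptors, all below the filter, were named only to say so. Markers were fixed for fibroblasts, epithelial cells, granulosa cells, oocytes, leukocytes and endothelial cells.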

Additional observations from a re-analysis of the deposited data

How the results depend on the processing

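Of 195 values recomputed for 13 results under 15 alternatives, 181 kept their direction and call or moved within the limit set, 3 lost their call, 7 counts or medians moved further, and 4 changed sign. The limit for the median was the spread between libraries. For counts it was a wide ratio, within which genes called higher went from 386 to 573 with equal library sums. The 4 that changed sign belong to *Bloc1s1* (0.10 with equal library sums, 0.033 after quantile normalization, 0.038 without control replicate 1) and *Scara3* (0.058 with equal library sums), neither called under any alternative. With equal library sums the median of all genes also moved, and less that median *Bloc1s1* was at −0.04 and *Scara3* at −0.08. *Saraf* lost its call without an intensity trend (0.14, adjusted p = 0.0701, limma), and its log2 fold change was 0.12 to 0.15 when 1 library was left out; the cause was not tested. *Bloc1s1* then lay between −0.11 and 0.04. The median log2 fold change of the 5 members, 0.14, was 0.270 with equal library sums and 0.271 after quantile normalization. Genes called higher numbered 242 when a mean of 1 FPKM was required, since fewer genes were tested, and 114 with a pseudocount of 1, which shrinks folds of weakly expressed genes, against 386; genes called lower numbered 205 with that pseudocount, against 359. With equal library sums, 4551 genes were higher and 1865 lower at an adjusted p under 0.05, against 2898 and 2904. The replicate number as a replicate block changed no call of a member (*Saraf* 0.14). Libraries with the same number were not taken as pairs, since their deviations from the means of their groups had a correlation, over genes, of −0.029, −0.027 and −0.012. Read depth per gene is not known from FPKM, so the spread between libraries is the only measure of precision.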
